A study of Mus musculus with 6 samples.

Results

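The ZBTB genes encode zinc-finger transcription factors, and the open chromatin around them was compared in blood progenitors with a low and with a full dose of human GFI1. Members were the protein-coding genes of the mouse build mm10 whose symbol is Zbtb and a number, with at most 1 letter after it for paralogues such as Zbtb7a. Zbtb17 was left out by the rule, and so was Zbtb8os, an opposite-strand gene that is no zinc-finger factor. This gave 39 of 21887 protein-coding genes, on 15 chromosomes. A peak was assigned to a member if it overlapped the gene body, or lay within 50 kb of it with that gene as the nearest protein-coding gene. The family held 412 of the 182166 consensus peaks, 290 in gene bodies and 122 outside, with 1 to 63 peaks per gene and 1 peak shared by Zbtb1 and Zbtb25. Of these, 375 had a mean of at least 10 normalized reads and were tested, and 37 fell below that level and were not. Assignment goes by distance alone, and the gene on which a peak acts is not known.

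Most ZBTB proteins join an N-terminal BTB domain, through which they pair and bind corepressors such as BCOR and histone deacetylases, to C-terminal zinc fingers that read DNA. Several of them set lineage choices in blood: Zbtb16 (PLZF) in natural killer T cells and innate lymphoid precursors, Zbtb7b (ThPOK) in helper T cells, Zbtb7a (LRF) in B, T and red cell development, and Zbtb46 in classical dendritic cells. GFI1 is itself a zinc-finger repressor of blood progenitors and binds DNA at sites with an AATC core.

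ATAC-seq, in which a transposase inserts adapters into open DNA, was run on granulocyte-monocyte progenitors that had been sorted from bone marrow. The mice were of the strain C57BL/6 and untreated. In GFI1-KD mice human GFI1 was expressed at 10 to 20%, per the labels, and in GFI1-KI mice human GFI1 replaced the mouse gene, so both genotypes lacked mouse Gfi1. Each genotype had 3 libraries, called KD1 to KD3 and KI1 to KI3 here. The labels give neither the age of the mice nor the way in which GFI1 was lowered, and whether each library is a separate animal is not stated either, so the tests below rest on the spread between libraries, which may be technical.

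Reads in peaks numbered 16022763 to 19857646 in the GFI1-KD libraries. KI1 held 19408373, within that range, while KI2 and KI3 were deeper at 24365743 and 27741446. KD1 had 0 reads on chromosome Y and KI2 had 1, against 499 to 865 in the other libraries. Start-site peaks of 9 granulocyte-monocyte progenitor genes, such as Mpo and Cebpa, had a median of 441 normalized reads in GFI1-KD (257 to 1614) and 418 in GFI1-KI (220.5 to 1755), and 5 of the 9 were lower in GFI1-KD by their means. Those of 5 genes of natural killer T, T and innate lymphoid cells had a median of 62.3 in GFI1-KD (28.9 to 452) and 73.4 in GFI1-KI (26.6 to 481), so the ranges of the marker lists overlapped. For these markers the highest mean among the gene's peaks within 1 kb of a start site of any protein-coding gene was taken, separately in each genotype. That start may belong to a neighbouring gene, and the peak can differ between genotypes. Accessibility was measured on bulk cells, in which fewer cells of a type and less accessibility per cell cannot be told apart.

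Members whose start sites differed are shown first by sequence. A start-site peak of a member is a peak within 1 kb of a RefSeq start site of the gene, or of either gene end for the 5 members without a listed start (Zbtb7c, Zbtb10, Zbtb16, Zbtb40 and Zbtb48). Counts of peaks near a start site are wider and take the start sites of any protein-coding gene. Promoters of 34 members were listed, 46 sequences of 250 bases before to 50 bases after each start. The 4 shown overlap peaks that were lower in GFI1-KD, with 243 of the 300 bases of Zbtb4 inside its peak, and were chosen after their values were seen. They run 5′ to 3′ on the gene's strand and come from RefSeq on GRCm38.p6, and capitals mark AATC or its reverse complement GATT. The Zbtb4 promoter is at chr11:69765662-69765961 on the plus strand, Zbtb39 at chr10:127739280-127739579 on the plus strand, Zbtb11 at chr16:55973554-55973853 on the plus strand and Zbtb5 at chr4:45012363-45012662 on the minus strand.
Zbtb4: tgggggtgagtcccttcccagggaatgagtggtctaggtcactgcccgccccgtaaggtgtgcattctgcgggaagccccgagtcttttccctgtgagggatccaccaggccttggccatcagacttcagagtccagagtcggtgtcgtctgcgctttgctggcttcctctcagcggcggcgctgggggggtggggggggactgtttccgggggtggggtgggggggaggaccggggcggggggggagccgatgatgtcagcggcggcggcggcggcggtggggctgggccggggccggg
Zbtb39: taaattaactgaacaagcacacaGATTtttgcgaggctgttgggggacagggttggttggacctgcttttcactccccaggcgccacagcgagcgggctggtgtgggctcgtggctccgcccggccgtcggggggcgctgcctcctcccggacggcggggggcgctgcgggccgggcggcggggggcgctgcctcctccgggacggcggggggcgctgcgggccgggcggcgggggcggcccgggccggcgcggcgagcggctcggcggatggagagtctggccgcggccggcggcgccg
Zbtb11: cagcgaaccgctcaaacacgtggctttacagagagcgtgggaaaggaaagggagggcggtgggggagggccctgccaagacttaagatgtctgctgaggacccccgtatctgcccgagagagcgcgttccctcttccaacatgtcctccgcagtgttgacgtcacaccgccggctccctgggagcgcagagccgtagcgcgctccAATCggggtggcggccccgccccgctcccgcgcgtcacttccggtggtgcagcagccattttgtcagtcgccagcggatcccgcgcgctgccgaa
Zbtb5: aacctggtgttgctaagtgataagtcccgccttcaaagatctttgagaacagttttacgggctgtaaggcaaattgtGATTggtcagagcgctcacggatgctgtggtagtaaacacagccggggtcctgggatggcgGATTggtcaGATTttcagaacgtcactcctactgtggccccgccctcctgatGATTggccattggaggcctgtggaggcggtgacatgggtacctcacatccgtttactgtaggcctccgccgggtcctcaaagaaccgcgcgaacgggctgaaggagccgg
The Zbtb4 sequence holds 0 matches to AATC on either strand, those of Zbtb39 and Zbtb11 hold 1 each, and that of Zbtb5 holds 4. Across the family, 27 of 46 promoters (58.7%) held AATC on either strand, against 70.8% of the 21263 promoters of all protein-coding genes. The longer form AATCNNNGC, which contains the core, was found in 6 ZBTB promoters (13%) and in 10.7% of all promoters. Of the 9 ZBTB promoters that overlapped a peak that differed, which belong to 7 genes, 7 held AATC and 0 held AATCNNNGC. ZBTB promoters had a median GC content of 65.7%, against 56.3% for all promoters. A match is a description of the letters and shows no binding.

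Where ZBTB chromatin differed between genotypes, it was mostly less accessible in GFI1-KD. Of the 375 tested peaks, 37 (9.87%) were called, meaning a limma p under 0.05 after Benjamini-Hochberg adjustment, close to the 10.5% called among all tested peaks. The directions were uneven: 32 ZBTB peaks (8.53%) were lower in GFI1-KD, against 5.48% of all tested peaks, and 5 (1.33%) were higher, against 4.99%. Under median-of-ratios scaling the split was 25 lower and 9 higher, so that 26.5% of the called ZBTB peaks were higher in place of 13.5%, against 4.61% lower and 6.82% higher among all tested peaks. On recovered reads, edgeR called 29 ZBTB peaks lower (7.73%) and 9 higher (2.4%), against 5.25% and 7.36% of all tested peaks. DESeq2 called 6 lower (1.6%) and 4 higher (1.07%), against 2.11% and 4.23%, so its share of lower ZBTB calls was not above that of all peaks. The median log2 fold change, GFI1-KD over GFI1-KI, was -0.13 over the ZBTB peaks and -0.05 over all tested peaks. Of the 375 tested ZBTB peaks, 7 were called and at least 2-fold lower, a share close to the 1.72% of all tested peaks. Only 1 of the 375 was called and at least 2-fold higher, against 1.11% of all tested peaks. Genotypes did not overlap in 35 of the 37, but these were picked by p in the same libraries, so this count is no separate evidence. Over all tested ZBTB peaks they did not overlap in 80 that were lower (21.3%) and 17 that were higher (4.53%), against 17.4% and 11.4% of all tested peaks. At least 1 called peak was found at 16 of the 39 genes: only lower peaks at 13, only higher peaks at Zbtb7a, both at Zbtb18 and Zbtb20, and none at 23.

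The share of each library's reads that fell in ZBTB peaks separated the genotypes. It was 0.293%, 0.287% and 0.285% in KD1 to KD3, and 0.303%, 0.309% and 0.312% in KI1 to KI3. Every GFI1-KD library lay below every GFI1-KI library, with an exact two-sided permutation p of 0.1, the smallest that 3 against 3 libraries allow. Beside this, the share of reads in all peaks near start sites was also lower in GFI1-KD, 39.4% to 39.9% against 41.3% to 42.4%. The part of that shift in the ZBTB share was not tested. Single libraries moved the number of calls. Without KI1, the GFI1-KI library closest to GFI1-KD in depth, 40 ZBTB peaks were lower (10.7%) and 10 higher (2.67%), against 5.96% and 7% of all tested peaks. Without KI2 and without KI3 the calls fell to 11 and 12 (2.93% and 3.2%), against 4.24% and 4.1% of all tested peaks, and without KD2 and without KD3 to 24 and 21 (6.4% and 5.6%), against 7.28% and 6.33%. By strength, 12 of the 60 ZBTB peaks with a mean of at least 250 were called (20%), against 16.9% of all such peaks.

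**Figure D1:**
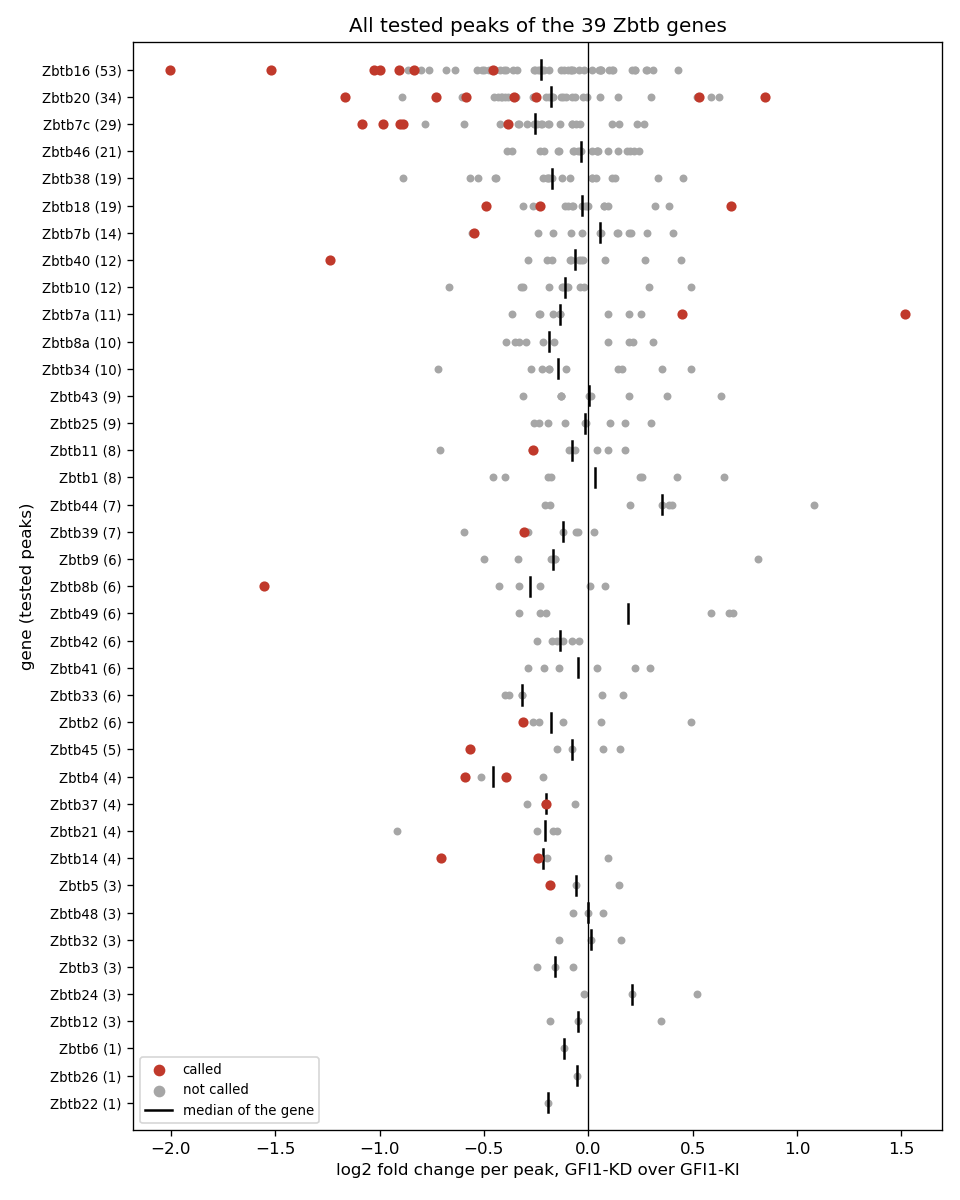
Each point is a tested peak of the gene named at the left, with its number of tested peaks in brackets, placed by its log2 fold change, GFI1-KD over GFI1-KI; red points were called, grey points were not, and black ticks are gene medians. Red points lie left of 0 except at Zbtb7a, Zbtb18 and Zbtb20, and 31 of the 39 gene medians are below 0.

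Zbtb16 encodes PLZF, the factor that gives natural killer T cells their innate-like program and that restrains cycling of blood stem cells. Its gene lies on chromosome 9 from 48651797 to 48836225 (184429 bp) and had more peaks than any other member, 63 in all, of which 53 were tested. In GFI1-KD 7 of them (13.2%) were lower and 0 were higher in limma, against 5.48% and 4.99% of all tested peaks. At an unadjusted p under 0.05, 14 were lower and 1 was higher (28.3% together), and 14.4% and 11.1% of all tested peaks were. The median log2 fold change over its tested peaks was -0.23, with a range of -2.00 to 0.43, and genotypes did not overlap in 16 peaks that were lower and 2 that were higher, 30.2% and 3.77% of its tested peaks, against 17.4% and 11.4% of all. Recovered reads showed fewer calls with other tools, 6 lower in edgeR and 2 lower in DESeq2, with 0 higher in both, against 5.25% and 2.11% lower among all tested peaks.

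The annotation used lists no start site or strand for Zbtb16, so its peaks are placed by their distance from the gene's low-coordinate end. A strong peak inside the gene, 162.7 kb along it (48814456 to 48815134), had 605, 512 and 501 normalized reads in GFI1-KD, against 673, 752 and 796 in GFI1-KI. All GFI1-KD values were below all GFI1-KI values, with means of 539 ± 56.8 and 740.4 ± 62.1 (SD, n = 3 each). The log2 fold change was -0.46 ± 0.09 (SE, limma adjusted p = 0.00194), and it was called in each of 19 alternative settings. The peaks beside it went the other way without passing the test: the one from 48814158 had 40.7, 48.1 and 55.4 normalized reads in GFI1-KD and 39.4, 36.8 and 38.5 in GFI1-KI (log2 fold change 0.31 ± 0.20, limma adjusted p = 0.34). The peak from 48817377 had a log2 fold change of 0.23 ± 0.11 (limma adjusted p = 0.21).

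The other called peaks of Zbtb16 were weak in reads. At 154.8 kb (48806568 to 48806901) GFI1-KD libraries had 17.1, 9.87 and 9.98 normalized reads, against 32.7, 36.8 and 39.3 in GFI1-KI libraries. The genotypes were well apart, with a log2 fold change of -1.52 ± 0.28 (limma adjusted p = 0.00128), called in each of 18 alternative settings. Nearby at 152.8 kb (48804630 to 48804839) there were 16.05, 13.6 and 15.5 normalized reads in GFI1-KD and 33.8, 27.2 and 32.5 in GFI1-KI, again without overlap. Its log2 fold change was -0.999 ± 0.25 (limma adjusted p = 0.0142), and the call was lost without KI3 (0.0858) and in DESeq2 (0.0978). The change of greatest size lay at 63.4 kb (48715150 to 48715357), with 8.56, 2.47 and 4.44 normalized reads in GFI1-KD, which rest on 8, 2 and 4 reads, and 21.4, 29.8 and 15.9 in GFI1-KI. It came to -2.00 ± 0.42 on the log2 scale (limma adjusted p = 0.00394) and was lost without KI2 (0.0576). This peak had no adjusted p in DESeq2 and was not called there.

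Of the remaining 3 called Zbtb16 peaks, the one at 38.2 kb (48689982 to 48690426) had 23.5, 23.4 and 20.0 normalized reads in GFI1-KD and 27.0, 50.8 and 48.3 in GFI1-KI. KI1 lay close to the GFI1-KD libraries there, and the log2 fold change was -0.84 ± 0.25 (limma adjusted p = 0.0344). At 131.6 kb (48783420 to 48783662) the values were 18.2, 11.1 and 9.98 in GFI1-KD and 20.3, 28.0 and 34.0 in GFI1-KI, with a log2 fold change of -1.03 ± 0.30 (limma adjusted p = 0.0318). KD1 and KI1 were next to each other, without overlap. A peak 18.1 kb outside the gene (48854306 to 48854602) had 21.4, 9.87 and 16.6 in GFI1-KD and 24.8, 36.8 and 27.9 in GFI1-KI, and its limma adjusted p of 0.0498 missed the threshold in 13 of 18 alternative settings. The peaks at 38.2 and 131.6 kb were each lost when KD2, KD3, KI2 or KI3 was left out. KI1 was the lowest GFI1-KI library in 5 of the 7 called peaks, and 12 Zbtb16 peaks, 1 of them higher, were called without it. Leaving out KD2 or KD3 left 4 called peaks and leaving out KI2 or KI3 left 3.

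**Figure D2:**
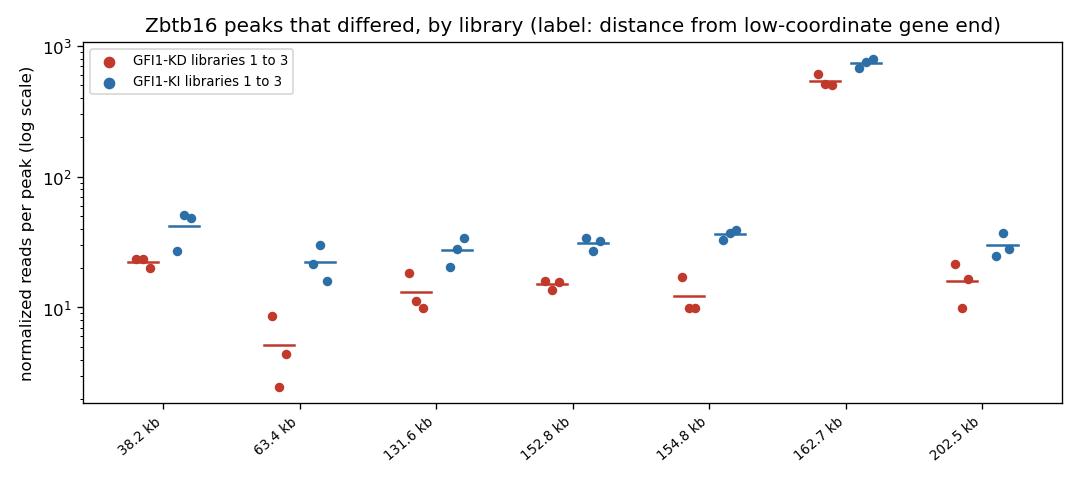
Normalized reads (log scale) in each library at the 7 called Zbtb16 peaks, in order of distance from the gene's low-coordinate end in kb; red points are GFI1-KD, blue points are GFI1-KI and bars are means. The GFI1-KD points lie below the GFI1-KI points at each peak, and the peak at 162.7 kb, with 501 to 796 normalized reads, stands far above the other 6.

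The strongest peak at an end of Zbtb16 (48835860 to 48836609) was not called. It had 445, 399 and 449 normalized reads in GFI1-KD and 450.4, 515 and 532 in GFI1-KI, and KD3 and KI1 were nearly equal. The log2 fold change was -0.21 ± 0.09 (limma adjusted p = 0.148), and the 3 smaller peaks within 1 kb of that end were not called either, at -0.08, 0.10 and 0.43. Summed over all 63 peaks, Zbtb16 had 5149, 4396 and 4744 normalized reads in GFI1-KD and 5165, 5405 and 5306 in GFI1-KI, with KD1 and KI1 nearly equal. The share of reads in Zbtb16 peaks overlapped between genotypes (0.0222% to 0.0242% in GFI1-KD, 0.0236% to 0.0253% in GFI1-KI, exact two-sided permutation p = 0.2). Among the 417 other tested peaks between 45 and 50 Mb on chromosome 9, 36 (8.63%) were called, 15 lower and 21 higher. Markers of natural killer T, T and innate lymphoid cells, which use Zbtb16, had 4 lower and 3 higher of 141 tested peaks (4.96% called, against 10.5% of all tested peaks), and their summed reads ran from 10005 to 11252 in GFI1-KD and from 11284 to 11624 in GFI1-KI, with none of the 9 genes at 0. Their part in the Zbtb16 values was not tested.

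**Figure D3:**
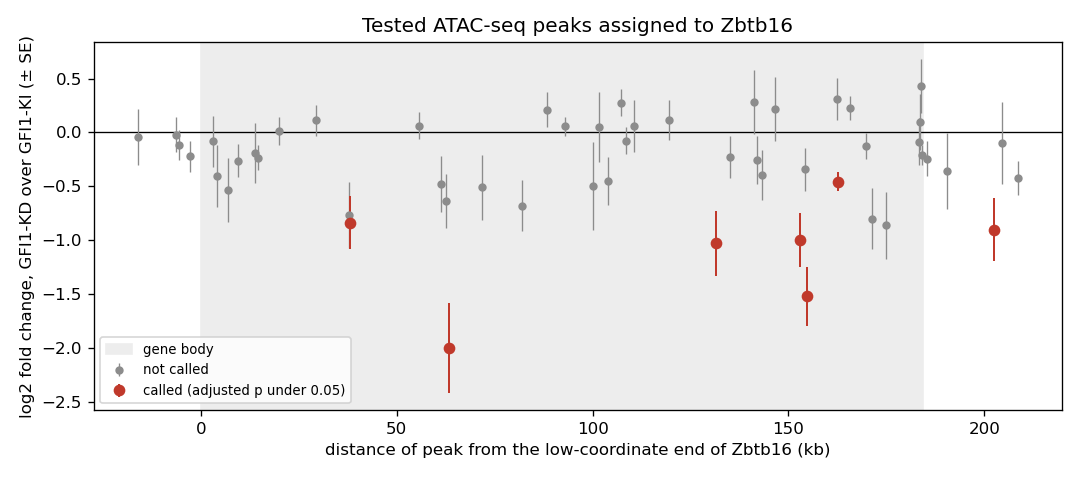
Log2 fold change, GFI1-KD over GFI1-KI, with its standard error for tested Zbtb16 peaks against distance in kb from the gene's low-coordinate end; the grey band is the gene body and red points were called. Called peaks lie at 38.2 kb and further along, all below 0, among uncalled peaks on both sides of 0.

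Zbtb20, which acts in plasma cells, liver and hippocampus, had called peaks in both directions. Of 34 tested, 5 were lower (14.7%) and 2 higher (5.88%), against 5.48% and 4.99% of all tested peaks. Its peak at the gene's 5′ end on chromosome 16 (42874913 to 42876465) was the strongest of any member, with 3057, 2709 and 2748 normalized reads in GFI1-KD and 3161, 3499 and 3468 in GFI1-KI. The genotypes did not overlap, and the log2 fold change of -0.25 ± 0.05 (limma adjusted p = 0.00306) held when each library was left out and was lost in DESeq2 (0.0618). That peak also overlaps the predicted gene 4932412D23Rik. Lower peaks inside the gene included one at 21.4 kb (42897115 to 42897590), with 56.7, 109 and 73.2 in GFI1-KD and 127, 132 and 125 in GFI1-KI, at -0.73 ± 0.18 (limma adjusted p = 0.0128). A weak peak at 567.4 kb (43443040 to 43443329) had 8.56, 14.8 and 24.4 in GFI1-KD and 28.1, 35.9 and 39.3 in GFI1-KI, at -1.17 ± 0.31 (limma adjusted p = 0.0171). GFI1-KI libraries were tight at the first of these and GFI1-KD libraries were spread at both. The call at 21.4 kb was lost without KD1, KD3 or KI2, and that at 567.4 kb without KD1, KI2 or KI3 and in DESeq2.

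Zbtb20 peaks that were higher in GFI1-KD lay further along the gene. At 533.4 kb (43409132 to 43409601) there were 218, 243 and 295 normalized reads in GFI1-KD and 191, 164 and 165 in GFI1-KI. All GFI1-KD libraries were above all GFI1-KI libraries, with a log2 fold change of 0.53 ± 0.13 (limma adjusted p = 0.0095), lost without KD3, KI2 or KI3 (at most 0.0803). At 749.3 kb (43624942 to 43625237) there were 28.9, 40.7 and 45.5 in GFI1-KD and 21.4, 28.0 and 14.3 in GFI1-KI, a log2 fold change of 0.85 ± 0.26 (limma adjusted p = 0.0422). The genotypes were separated by KD1 and KI2 at nearly the same level. The call at 749.3 kb was lost without KD2, KD3, KI1 or KI3 and in DESeq2.

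Zbtb7a was the member with higher peaks alone. Its product LRF directs lymphoid and erythroid fate and silences fetal globin genes. The peak inside the gene on chromosome 10 at 11.1 kb (81146367 to 81146741) had 188, 132 and 103 normalized reads in GFI1-KD and 66.4, 35.9 and 43.8 in GFI1-KI. The lowest GFI1-KD value was above the highest GFI1-KI value, with means of 141 ± 43.3 and 48.7 ± 15.8 (SD, n = 3 each). The log2 fold change of 1.52 ± 0.22 (limma adjusted p = 0.000153) was the ZBTB call with the smallest p, and it held in each of 19 alternative settings with adjusted p up to 0.0022. At 7.9 kb (81143151 to 81143639) there were 225, 156 and 191 in GFI1-KD and 159.9, 129 and 127 in GFI1-KI, so that KD2 fell below KI1. That call (0.45 ± 0.14, limma adjusted p = 0.0498) was lost without KD1, KD3, KI2 or KI3. The start-site peak (81137248 to 81138031) went the other way with 1563, 1406 and 1472 in GFI1-KD and 1607, 1626 and 1646 in GFI1-KI, and was not called (-0.14 ± 0.06, limma adjusted p = 0.125). Of the 763 other tested peaks between 80 and 85 Mb on that chromosome, 16 were higher and 44 lower (7.86% called).

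Zbtb7c (Kr-pok), the paralogue of Zbtb7a, had called peaks in the other direction, 5 lower and 0 higher of 29 tested, with a median log2 fold change of -0.26. At an unadjusted p under 0.05 there were 7 lower and 0 higher peaks, against 14.4% and 11.1% of all tested peaks. There edgeR called 5 lower and DESeq2 called 1 lower, with none higher in either, against 5.25% and 2.11% lower among all tested peaks. The peak on chromosome 18 at 97.6 kb (75917776 to 75918048) had 16.05, 22.2 and 22.2 normalized reads in GFI1-KD and 51.8, 39.4 and 40.02 in GFI1-KI. The genotypes were well apart, and the log2 fold change of -1.09 ± 0.23 (limma adjusted p = 0.00469) held in each of 18 alternative settings. The other 4 called peaks, at 33.1, 37.9, 75.4 and 233.1 kb, had log2 fold changes from -0.98 to -0.38, and none held in every setting.

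Zbtb18 (RP58), a repressor needed in cortical neurons, had adjoining peaks outside the gene that moved in opposite directions. On chromosome 1 the peak from 177470115 to 177470558 had 81.3, 81.5 and 73.2 normalized reads in GFI1-KD and 51.8, 54.3 and 40.8 in GFI1-KI, a log2 fold change of 0.68 ± 0.18 (limma adjusted p = 0.0158). The peak 0.439 kb further on (177470997 to 177471332) had 87.7, 85.2 and 95.4 in GFI1-KD and 143, 113 and 123 in GFI1-KI, a log2 fold change of -0.49 ± 0.15 (limma adjusted p = 0.0353). Neither peak showed overlap between genotypes. The higher call was lost without KD2 or KI3 and the lower one in each of the 6 fits that left out a library.

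**Figure D4:**
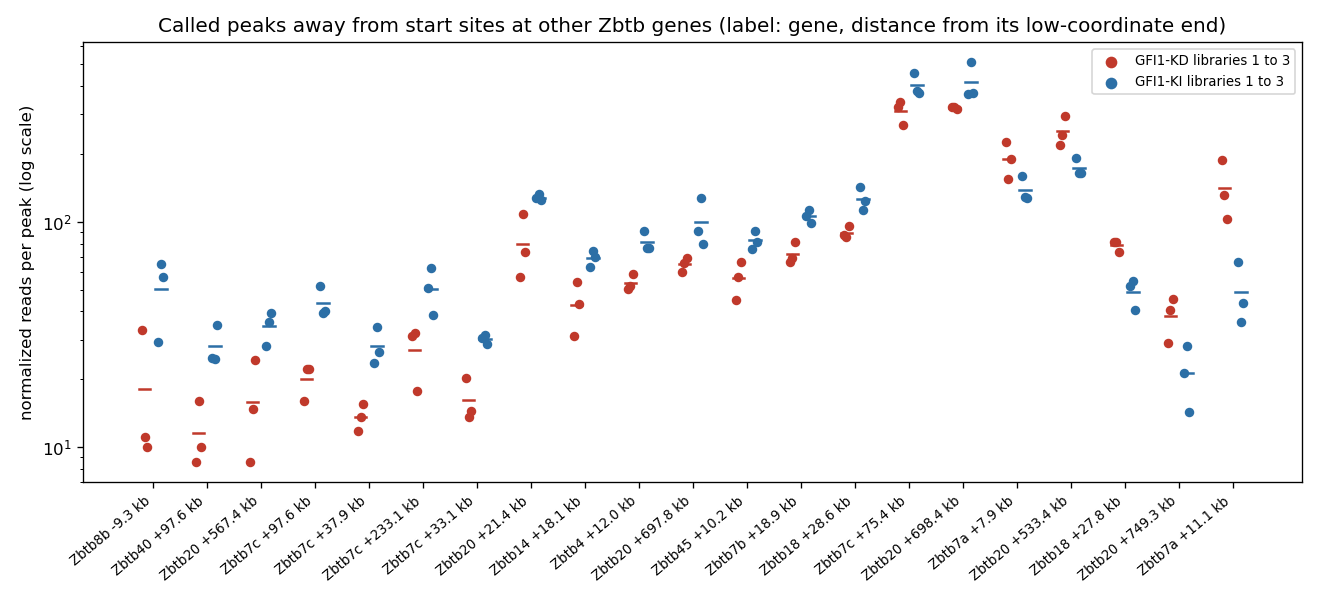
Normalized reads (log scale) in each library at called peaks away from start sites at members other than Zbtb16, labelled by gene and distance in kb from its low-coordinate end; red points are GFI1-KD, blue points are GFI1-KI and bars are means. Peaks are ordered by log2 fold change, lower in GFI1-KD at the left and higher at the right, where the Zbtb7a peak at 11.1 kb has red points at 103 to 188 and blue points at 35.9 to 66.4.

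Single lower peaks away from start sites were called at a further 6 genes. Outside Zbtb8b a peak on chromosome 4 (129416480 to 129416819) had 33.2, 11.1 and 9.98 normalized reads in GFI1-KD and 29.3, 64.9 and 56.6 in GFI1-KI. KD1 was above KI1, so the genotypes overlapped, and the call (-1.55 ± 0.35, limma adjusted p = 0.0064) was lost without KI2 (0.0515) and in DESeq2 (0.175). Near Zbtb40, which in human studies lies in a bone density locus, a peak (137077300 to 137077530) had 8.56, 16.04 and 9.98 in GFI1-KD and 24.8, 24.5 and 34.7 in GFI1-KI. Without overlap its log2 fold change was -1.24 ± 0.30 (limma adjusted p = 0.0111), and it also overlaps the predicted gene Gm31648. Beside Zbtb7b a peak (89396509 to 89396659) had 66.3, 69.1 and 80.9 in GFI1-KD and 106, 112 and 98.9 in GFI1-KI, at -0.55 ± 0.15 (limma adjusted p = 0.026). Beside Zbtb45, which acts in neural progenitors, a peak (13015832 to 13016321) had 44.9, 56.8 and 66.5 in GFI1-KD and 75.4, 91.2 and 81.6 in GFI1-KI, at -0.57 ± 0.18 (limma adjusted p = 0.0454). The genotypes were apart at both peaks. Peaks of Zbtb4 at 12.03 kb and Zbtb14 at 18.1 kb were also lower, with log2 fold changes of -0.59 ± 0.17 and -0.71 ± 0.20 (limma adjusted p = 0.029 and 0.0277). Each of these 6 calls was lost in at least 1 fit that left out a library.

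Start-site peaks of the family were mostly lower in GFI1-KD by their means, as were those of all genes. Of the 89 tested ZBTB peaks near a start site, 9 (10.1%) were lower and 0 higher in limma, against 7.14% and 1.56% of all tested peaks near start sites, where 8.69% were called. At an unadjusted p under 0.05, 27 (30.3%) were lower and 3 (3.37%) higher, against 19.6% and 4.35% of all tested peaks near start sites. Their median log2 fold change was -0.13, against -0.10 for all such peaks. Genotypes did not overlap in 26 that were lower (29.2%) and 2 that were higher (2.25%), against 25.1% and 5.34%. In edgeR 7 were lower and 0 higher, and in DESeq2 2 were lower and 0 higher. Among all tested peaks these tools called 5.25% and 2.11% lower. The 9 calls became 15 without KD1 and 2 without KI2 or without KI3. Calls over all tested peaks were 9.97% without KD1, 4.24% without KI2 and 4.1% without KI3, in place of 10.5%. The share of all peaks near start sites was not computed for these tools and left-out libraries. Away from start sites 23 of 286 (8.04%) were lower and 5 (1.75%) higher, against 5.16% and 5.65% of such peaks in the whole table, where 10.8% were called. Taking the strongest start-site peak of each gene gave 38 genes, since Zbtb8b had none, and 37 distinct peaks. Their log2 fold changes ran from -0.40 at Zbtb4 to 0.01 at Zbtb32, and those of 37 of the 38 genes were below 0. Taken in the same way over all protein-coding genes, the strongest start-site peaks of 14889 genes were 13836 distinct peaks, 80% of them below 0. The median was -0.19 for the ZBTB genes and -0.13 for all genes, and under median-of-ratios scaling these became -0.15 and -0.08, with 34 of the 37 ZBTB peaks below 0. The 9 called peaks were 24.3% of the 37, against 12.2% called lower over all genes. At 20 of the 37 (54.1%) the genotypes did not overlap, with GFI1-KD lower each time, against 37.9% over all genes. This comparison was made after the values were seen.

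**Figure D5:**
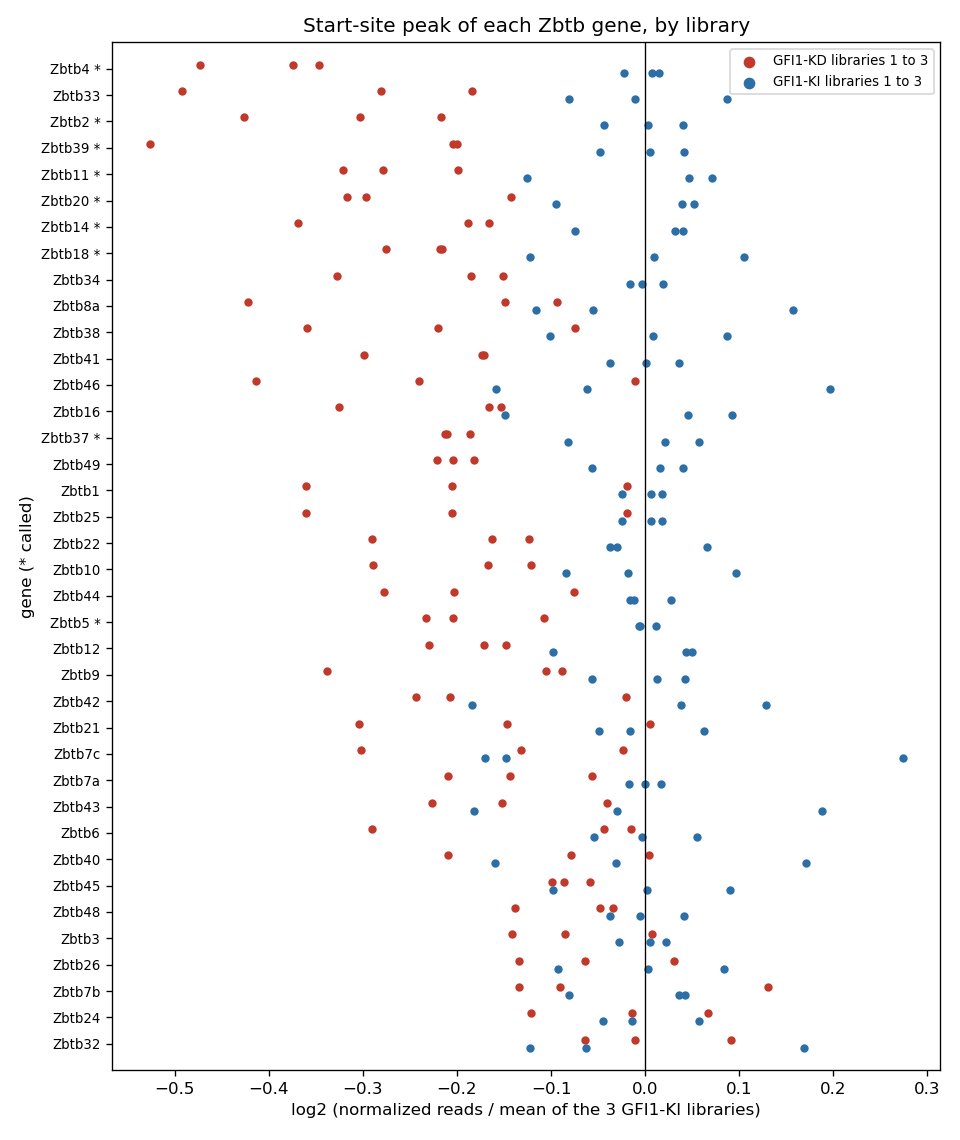
Log2 ratio of normalized reads in each library to the GFI1-KI mean at the strongest start-site peak of each of 38 genes, ordered by fold change; red points are GFI1-KD, blue points are GFI1-KI and an asterisk marks a called peak. The 9 called genes are Zbtb4, Zbtb2, Zbtb39, Zbtb11, Zbtb20, Zbtb14, Zbtb18, Zbtb37 and Zbtb5, with their red points left of 0.

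Levels per length differed widely between members' start-site peaks. Per kb of peak, means ran from 246 (Zbtb8a) to 2033 (Zbtb5) normalized reads in GFI1-KD and from 282 (Zbtb7c) to 2304 (Zbtb5) in GFI1-KI. Zbtb2, which represses p53 pathway genes in human cells, had 1359, 1175 and 1280 normalized reads per peak on chromosome 10 (4386628 to 4387647) in GFI1-KD and 1582, 1531 and 1624 in GFI1-KI. No values overlapped, and the log2 fold change of -0.31 ± 0.06 (limma adjusted p = 0.00223) held in each of 19 alternative settings. This peak lies inside Zbtb2 and does not reach its listed start at 4388108. Of the 300 bases of the Zbtb2 promoter, 262 lay in a peak and 0 in a called peak. Zbtb11, needed for neutrophil development in zebrafish, had 1741, 1599 and 1647 on chromosome 16 (55973491 to 55974797) in GFI1-KD and 1831, 2099 and 2063 in GFI1-KI, at -0.26 ± 0.06 (limma adjusted p = 0.00569). KI1 was the GFI1-KI library nearest to GFI1-KD, and the call was lost without KI2 (0.0679), without KI3 (0.0619) and in DESeq2 (0.0522). This peak, whose promoter is printed above, also overlaps Zbtb11os1.

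The methyl-CpG binding members had log2 fold changes below 0 at their start-site peaks. Zbtb4 had 260.0, 238 and 255 normalized reads at its start-site peak on chromosome 11 (69765719 to 69766726) in GFI1-KD and 325, 334 and 332 in GFI1-KI. The spread within each genotype was small beside the gap, and the log2 fold change was -0.40 ± 0.10 (limma adjusted p = 0.0131), lost without KI2 or KI3 (at most 0.0776). Zbtb33 (Kaiso) had 310, 290.0 and 251 in GFI1-KD and 333, 374 and 350 in GFI1-KI, without overlap and without passing the test (-0.32 ± 0.10, limma adjusted p = 0.0555). The Zbtb38 start-site peak missed it too, at -0.22 ± 0.09 (limma adjusted p = 0.132). Over the 3 genes 2 of 29 tested peaks (6.9%) were lower and 0 higher in limma, against 5.48% and 4.99% of all tested peaks. At an unadjusted p under 0.05, 10 (34.5%) were lower and 0 higher, against 14.4% and 11.1%. For these genes edgeR called 2 lower and DESeq2 called 1 lower, with none higher in either, against 5.25% and 2.11% lower among all tested peaks.

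The start-site peak of Zbtb39 on chromosome 10 (127739268 to 127740044) had 398, 318 and 399 normalized reads in GFI1-KD and 444, 460.2 and 472 in GFI1-KI, at -0.31 ± 0.10 (limma adjusted p = 0.0464). KD2 was set apart from KD1 and KD3, and the call was lost without KD2, KD3, KI2 or KI3. Zbtb14 (ZF5), a repressor of Myc, had 1756, 1525 and 1729 on chromosome 17 (69382535 to 69384315) in GFI1-KD and 1870.2, 2012 and 2025 in GFI1-KI, at -0.24 ± 0.06 (limma adjusted p = 0.0113), without overlap. The Zbtb14 call was lost without KI2, without KI3 and in DESeq2. The called start-site peaks of Zbtb18, Zbtb37 and Zbtb5 had log2 fold changes from -0.23 to -0.18. All 3 were lost without KI2 or KI3, and those of Zbtb37 and Zbtb5 also in edgeR. The Zbtb37 peak overlaps Gas5 and the Zbtb5 peak overlaps 1700055D18Rik.

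No start-site peak of the lymphoid and dendritic members apart from that of Zbtb20 was called in limma. The peak shared by Zbtb1, which is needed for lymphoid development, and Zbtb25 had 1568, 1237 and 1377 normalized reads in GFI1-KD and 1608, 1562 and 1595 in GFI1-KI. KD1 overlapped the GFI1-KI range, and the peak was not called (-0.19 ± 0.07, limma adjusted p = 0.0701). The start-site peaks of Zbtb7b and Zbtb32, a brake on lymphocyte responses, had log2 fold changes of -0.03 ± 0.09 and 0.01 ± 0.10 (limma adjusted p = 0.871 and 0.963). Zbtb46 had 0 called of 21 tested peaks in limma, in edgeR and in DESeq2, and 1 at an unadjusted p under 0.05. Its start-site peak had 230.0, 174 and 196 in GFI1-KD and 266, 208 and 222 in GFI1-KI, with overlapping genotypes (-0.21 ± 0.13, limma adjusted p = 0.312). Dendritic markers were higher in 5 of 51 tested peaks (9.8%, against 4.99% of all tested peaks), with summed reads of 8561 to 9104 in GFI1-KD and 7556 to 8350 in GFI1-KI, and their part in the Zbtb46 values was not tested.

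Grouped by role, the 8 lymphoid and dendritic members (Zbtb1, Zbtb7b, Zbtb16, Zbtb20, Zbtb24, Zbtb25, Zbtb32 and Zbtb46) had 13 lower and 2 higher of 144 tested peaks (10.4% called), with all lower calls but 1 at Zbtb16 and Zbtb20. The 7 members tied to progenitors, growth and genome maintenance (Zbtb2, Zbtb5, Zbtb7a, Zbtb10, Zbtb11, Zbtb40 and Zbtb48) had 4 lower and 2 higher of 55 (10.9%). The 5 members listed as neural, muscle and developmental (Zbtb7c, Zbtb14, Zbtb18, Zbtb42 and Zbtb45) had 10 lower and 1 higher of 63 (17.5%). Of these lower calls 5 were at Zbtb7c and 2 at Zbtb14. The group names are loose labels, and no role was tested. Of all tested peaks 10.5% were called, so the shares of the first 2 of these groups were close to that of all peaks. The median log2 fold changes of the 3 groups were -0.10, -0.09 and -0.15, against -0.05 for all tested peaks. Erythroid and megakaryocyte markers moved in the same direction as most ZBTB calls, with 8 of 37 tested peaks lower (21.6%, against 5.48% of all tested peaks) and summed reads of 3582 to 4085 in GFI1-KD and 4615 to 5021 in GFI1-KI, and mast cell and basophil markers had 6 lower (28.6%) and 1 higher of 21. None of these marker genes was at 0. Other marker lists did not move this way. B cell markers had 2 lower and 2 higher of 28 tested peaks (7.14% each), and mature macrophage markers 0 lower and 1 higher of 40 (2.5%). Their median log2 fold changes were 0.15 and 0.12, and that of dendritic markers was 0.14. The part of these markers in the ZBTB values was not tested.

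Genes that share the BTB zinc-finger architecture under other names were mixed in direction. Of 63 tested peaks at Bcl6, Bcl6b, Hic1, Hic2, Patz1, Gzf1, Mynn and Zfp131, 6 were lower and 4 higher (15.9% called, against 10.5% of all tested peaks). These were 3 higher at Bcl6, 1 higher and 3 lower at Patz1, 2 lower at Hic2 and 1 lower at Zfp131. The lead peak, inside Hic2 on chromosome 16 (17252069 to 17252489), had 36.4, 21.0 and 25.5 normalized reads in GFI1-KD and 76.6, 112 and 78.5 in GFI1-KI (-1.67 ± 0.22, limma adjusted p = 6.71e-05), without overlap. Of 345 tested peaks at 18 corepressor and partner genes, 21 were lower and 11 higher (9.28%, against 10.5% of all tested peaks). Hdac4 had 7 of the higher calls, while Bcor and Ezh2 had 3 each of the lower calls. The lead peak, 0.103 kb outside Hdac7 on chromosome 15 (97844605 to 97845105), had 50.3, 30.9 and 43.2 normalized reads in GFI1-KD and 84.4, 110 and 92.9 in GFI1-KI (-1.21 ± 0.19, limma adjusted p = 0.000433).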

How the data were processed

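The authors deposited a coverage signal, normalized reads per consensus peak, in which the values of a library share 1 scaling factor. Per the submitters' processing notes the build was mm10, and the tools named, with neither version nor role, are HOMER, ChIPseeker, DiffBind, MACS2, Picard, SAMtools, BWA and Trim Galore. The sources used here do not give the peak merging, the scaling or any transposase shift. Every value was a whole multiple of its column's step (tolerance 0.01 reads), so whole reads were recovered; 3 reads, taken as a floor, correspond to 2.27 to 3.70 normalized reads depending on the library. Columns headed WT were taken as GFI1-KI, with matching numbers. Chromosome codes were read in alphabetical order of names: over the 18 codes that differ, 16.1% of peaks then lay near a start site, against 1.89% in numeric order. Coordinates are as the table gives them.

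The genotypes were compared with limma 3.58.1 in R 4.3.3, with a trended variance on log2(value + 1), over the 170733 peaks with a mean of at least 10, Benjamini-Hochberg adjusted over all of them, with a threshold of 0.05. Fold changes are on that scale, which understates low peaks, and errors are standard errors. Alternatives were other scalings, pseudocounts, filters, thresholds and peak assignments, a replicate block, robust variance, leaving out each library, and count tests on the recovered reads, DESeq2 1.42.0 and edgeR 4.0.16. A term for chromosome Y reads and thinning to equal depth were added after seeing the data. Same-numbered libraries did not deviate together (correlations -0.024, -0.038 and 0.056), so numbers were not taken as pairs.

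Members, gene lists and tests were chosen with earlier results of these data known. Named were all called peaks of Zbtb16 and its gene-end peaks, the called peak with the smallest p at each other member (in full for the 12 largest changes), the strongest start-site peak of 10 members, and the lead peak of each further gene list. Other peaks were chosen after their values were seen. Genes and promoters came from RefSeq on GRCm38.p6. Sequences of peaks were not used here. Figures were made with matplotlib 3.10.9.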

Additional observations from a re-analysis of the deposited data

How the results depend on the processing

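Of the 37 called ZBTB peaks, 5 were called in every alternative run that tested them and 6 when each library was left out in turn. None turned direction. The 5 were the Zbtb16 peaks at 154.8 and 162.7 kb, the Zbtb7a peak at 11.1 kb, the Zbtb7c peak at 97.6 kb and the Zbtb2 start-site peak. The Zbtb16 peak at 154.8 kb and the Zbtb7c peak were too weak for the run with a mean of at least 50. Zbtb7a and Zbtb7c are not members when symbols must end in the number. The counts depended more on the setting than these peaks did. DESeq2 called 10 ZBTB peaks, 6 of them lower, 2 at Zbtb16 and 2 near start sites, with a median log2 fold change of -0.0754 in place of -0.13. The median over all tested peaks moved as well, to -0.006 in DESeq2 in place of -0.05. At an adjusted p threshold of 0.01 there were 10 calls (2.67%), 2 higher and 8 lower, with 3 at Zbtb16 and 3 near start sites. The share of all tested peaks at that threshold was not computed. Higher calls, 5 in the reported fit, numbered 9 in edgeR, 10 with equal totals, 9 with median-of-ratios scaling, which left 5 near start sites, 8 with a term for chromosome Y reads and 3 for symbols that end in the number. In that order they were 2.4%, 2.67%, 2.4%, 2.13% and 0.984% of ZBTB peaks. Of all tested peaks, 7.36%, 6.92%, 6.82%, 5.33% and 4.99% were higher. Thinning to equal depth gave 8 higher (2.13%) and 21 lower (5.6%), with 4 at Zbtb16, against 5.96% and 3.99% of all tested peaks. A mean of at least 50 left 1 call at Zbtb16, and 13.8% of the ZBTB peaks tested there were called, against 15.3% of all. With the replicate block 8 higher calls and 14 near start sites were found, 44 in all (11.7%, against 11.1% of all tested peaks). Leaving out each library in turn gave 11 to 50 calls, 1 to 10 higher and 7 to 40 lower, with 3 to 12 at Zbtb16 and 2 to 15 near start sites. The calls were 2.93% to 13.3% of ZBTB peaks, against 4.1% to 13% of all tested peaks. The lowest totals came without KI2 (11) and KI3 (12), the deepest libraries, and the highest without KI1. By mean level, 3.23% of ZBTB peaks were called at 10 to 20 normalized reads, 9.6% at 20 to 50, 8.59% at 50 to 250 and 20% above that, against 4.88%, 8.84%, 13.2% and 16.9% of all tested peaks. For the calls near start sites, the share of all such peaks was not computed in these settings. The causes of these differences between settings were not tested.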

Other observations

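Several members without a called peak had medians above 0. Zbtb44 had a median log2 fold change of 0.35 over 7 tested peaks, Zbtb24 0.21 over 3 and Zbtb49 0.19 over 6. At Zbtb44 a peak on chromosome 9 (31018182 to 31018557) had 142, 173 and 155 normalized reads in GFI1-KD and 129, 109.6 and 120.1 in GFI1-KI, without overlap and without passing the test (0.39 ± 0.14, limma adjusted p = 0.0723). Its start-site peak went the other way, at -0.19 ± 0.06 (limma adjusted p = 0.0591). A further Zbtb44 peak (31078611 to 31078731) had 72.8, 19.7 and 67.6 in GFI1-KD and 30.4, 21.0 and 15.1 in GFI1-KI, where KD2 lay within the GFI1-KI range. At Zbtb49 a peak on chromosome 5 (38208934 to 38209358) had 80.2, 54.3 and 63.2 in GFI1-KD and 27.0, 52.6 and 46.1 in GFI1-KI, with KD2 next to KI2. The start-site peak of Zbtb49 went the other way, as did a peak from 38211691, both without overlap. None of these differences was called in limma. In edgeR 2 peaks of Zbtb44, 1 of Zbtb49 and 1 of Zbtb1 were called higher, and in DESeq2 none was.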
